A study of Homo sapiens with 6 samples.

Results

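The transcripts described here are those of the cytosolic ribosomal proteins and of the translation elongation factors, measured by RNA-seq in 8505C cells, a long-established line from an anaplastic thyroid carcinoma. Members were chosen by name: RPL and RPS genes with their number and any A, X, Y or L form, RPSA, the stalk proteins RPLP0, RPLP1 and RPLP2, and the factors EEF1A1, EEF1B2, EEF1D, EEF1G and EEF2. Kinases of the RPS6K family and pseudogenes were left out. By name, 91 of the 58735 named genes were members, of which 52 belong to the large subunit, 34 to the small subunit and 5 to the elongation factors. Of these, 86 had at least 10 counts in at least 3 of the 6 libraries and were kept, 50 of the large subunit, 32 of the small subunit and 4 elongation factors. All 86 were among the 14280 genes tested.

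The tested libraries were 3 of 8505C cells labelled as carrying an shRNA against HHEX, a homeodomain transcription factor of thyroid and blood cells, with a knockdown genotype and no further treatment. They were set against 3 libraries of 8505C cells labelled with a control shRNA and a wild-type genotype. All 6 libraries thus came from hairpin-bearing cells of 1 line and were labelled untreated. The sources used here do not give the number of hairpins, whether the cells were a clone, or whether libraries came from separate cultures, so p-values gauge only how far these libraries scatter, which may be technical. KD1, KD2 and KD3 stand throughout for the libraries labelled so, and control1, control2 and control3 for the other three. In each group, 2 of the 3 sample titles share the first part of their replicate number, and what that number stands for is not given, so n = 3 counts libraries that may include repeats of 1 replicate. The column names tie a library to its group but not to a replicate number.

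The cytosolic ribosome joins a large subunit, which forms peptide bonds, and a small subunit, which reads the mRNA. Elongation factor 1A brings aminoacyl-tRNA to the ribosome, its partners EEF1B2 and EEF1D recharge it with GTP, and EEF2 moves the ribosome along the mRNA. Transcripts of this family usually begin with a C and a run of pyrimidines, the terminal oligopyrimidine tract (TOP), through which the TOR pathway and LARP1 set their translation and stability.

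The start of the transcript is shown for the members that the results turn on, since the tract is the sequence feature the family is known for. The tract was searched as a C at the annotated start, followed by at least 4 bases that are each C or T, on the sense strand only. It was present in 50 of the 69 kept members that had a window in the RefSeq promoter table of GRCh38.p14, a share of 72.5%. Among all 27305 genes with a window, 1404 or 5.14% had it, and among mitochondrial ribosomal proteins 6 of 69 or 8.70%. When the tract could begin within 5 bases of the start, a search chosen after the windows were seen, the shares were 82.6% of the members and 25.2% of all genes. Each line gives 30 bases, 5′ to 3′, with the annotated start at base 11 and the tract in capitals. The tract-bearing windows are those of EEF1A1 (chr6:73521013-73521042 on the minus strand), EEF2 (chr19:3985444-3985473 on the minus strand), RPL12 (chr9:127451387-127451416 on the minus strand), RPL13A (chr19:49487598-49487627 on the plus strand), RPLP0 (chr12:120201092-120201121 on the minus strand), RPS6 (chr9:19380217-19380246 on the minus strand), RPL22 (chr1:6199576-6199605 on the minus strand) and RPL22L1 (chr3:170870176-170870205 on the minus strand).
EEF1A1: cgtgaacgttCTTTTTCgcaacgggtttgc
EEF2: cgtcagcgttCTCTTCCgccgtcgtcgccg
RPL12: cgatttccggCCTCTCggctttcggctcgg
RPL13A: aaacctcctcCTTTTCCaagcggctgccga
RPLP0: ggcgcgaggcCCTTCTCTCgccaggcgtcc
RPS6: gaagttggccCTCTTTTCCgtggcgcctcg
RPL22: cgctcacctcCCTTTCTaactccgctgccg
RPL22L1: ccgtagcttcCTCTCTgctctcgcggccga
Windows without a tract at the start are those of RPL26L1 (chr5:172958719-172958748 on the plus strand), RPL7L1 (chr6:42879606-42879635 on the plus strand), RPS27L (chr15:63157458-63157487 on the minus strand), RPS26 (chr12:56041908-56041937 on the plus strand) and RPS15 (chr19:1438386-1438415 on the plus strand), printed in lower case throughout. They belong to paralog forms and to members whose values stood apart, and this choice does not link the tract to the values. RPL36A, with a positive log2 fold change, had a tract of 10 bases at its start, not printed here. RPL15 and RPS4X, negative like most members, had none. Another annotated start of RPL26L1 had no tract either.
RPL26L1: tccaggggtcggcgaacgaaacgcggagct
RPL7L1: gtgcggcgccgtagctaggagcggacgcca
RPS27L: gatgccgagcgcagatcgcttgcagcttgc
RPS26: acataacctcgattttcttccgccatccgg
RPS15: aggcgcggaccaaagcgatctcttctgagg

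Total counts over named genes were 13333245 to 15144176 a library. HHEX itself had 14.8, 7.93 and 7.12 CPM (counts relative to the TMM-scaled library total) in KD1, KD2 and KD3, against 12.6, 12.8 and 12.0 CPM in the controls. KD1 was thus at 118% of the control mean, KD2 at 63.6% and KD3 at 57.1%, and HHEX did not pass the test (log2 fold change -0.33, SE 0.28, edgeR adjusted p = 0.527). The level in KD1 goes against its label. Across tested genes, KD1 and KD2 correlated at 0.989, KD3 with them at 0.955 and 0.956, and KD3 with the controls at 0.971 to 0.977. The edgeR fit was therefore also run without each library in turn. Of the thyroid markers, NKX2-1, PAX8 and FOXE1 reached 10 counts in 3 libraries, while TG, TSHR and SLC5A5 did not. Leukocyte markers summed to 0 to 0.916 CPM in the libraries labelled HHEX shRNA and 0.130 to 0.224 CPM in the controls, and LYZ, one of the 5, was at 0 in all libraries. Fibroblast markers summed to 14.1 to 46.8 CPM and 43.4 to 55.6 CPM in the same groups, and endothelial markers to 5.07 to 14.9 CPM and 15.0 to 16.2 CPM, both with KD3 lowest. Epithelial markers summed to 848 to 1408 CPM and 772 to 1119 CPM, and mesenchymal markers to 1723 to 2196 CPM and 1695 to 2024 CPM. The part of these lists in the results was not tested.

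No ribosomal protein or elongation factor transcript passed the test between the 3 libraries labelled HHEX shRNA and the 3 controls, and those libraries did not move together. In KD1 and KD2 most members lay below every control, and the median member stood at -0.28 in KD1 and -0.45 in KD2 relative to the control mean on the log2 scale, while it stood at 0.19 in KD3. EEF2, which moves the ribosome along the mRNA, stood at 54.1% of its control mean in KD1 and 51.9% in KD2, but at 122% in KD3. The one member clearly on the other side was RPL26L1, a paralog of RPL26, at 213% in KD1, 184% in KD2 and 97.0% in KD3. In bulk RNA, fewer cells of a type and less RNA per cell cannot be told apart, and all levels are relative to the library.

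By edgeR's quasi-likelihood test with Benjamini-Hochberg adjustment over 14280 genes, 0 of the 86 members were called lower, where 0.0770% of all genes were, and 0 were called higher, where 0.105% of all genes were. At an unadjusted p under 0.05 there were 5 members (5.81%), where 20.6% of all tested genes were, a larger share. Of the 5, RPS29, RPL23A, RPL30 and EEF1D were lower and RPL26L1 higher. Their control means were low for the family, at 41.9, 49.8, 78.9, 67.7 and 24.3 CPM in that order. At a mean of at least 100 CPM, 0 of 42 large and 0 of 26 small subunit members had such a p. DESeq2 called 0 members as well, where it called 2.86% of all genes lower and 3.18% higher, and it put 7 members (8.14%) at an unadjusted p under 0.05, where 21.1% of all genes were. The fitted log2 fold change was negative for 82 members and positive for RPL26L1, RPS26, RPL7L1 and RPL36A. Its median was -0.17 over the 86 members, -0.20 over the large subunit, -0.14 over the small subunit and -0.32 over the elongation factors, beside -0.01 over all tested genes. These medians moved with single libraries: that of the large subunit was -0.36 without KD3, -0.06 without KD2, -0.12 without KD1 and -0.07 without control2, and that of the small subunit was -0.32, -0.01, -0.09 and -0.04 in the same fits. That of the 4 elongation factors was -0.50 without KD3, -0.13 without KD2 and -0.19 without KD1. The differences between the classes were not tested. The 86 values ran from -0.74 for RPS15 to 0.72 for RPL26L1, with quartiles of -0.24 and -0.10. The 3 libraries of each group did not overlap, with the HHEX shRNA side lower, for 4 members (4.65%), RPL23A, RPL30, RPS29 and EEF1D, where 13.3% of all genes did so. With the HHEX shRNA side higher there were 0 members, where 11.6% of all genes did so. Among the 42 and 26 subunit members at 100 CPM or more, there were 0 in either direction.

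**Figure D1:**
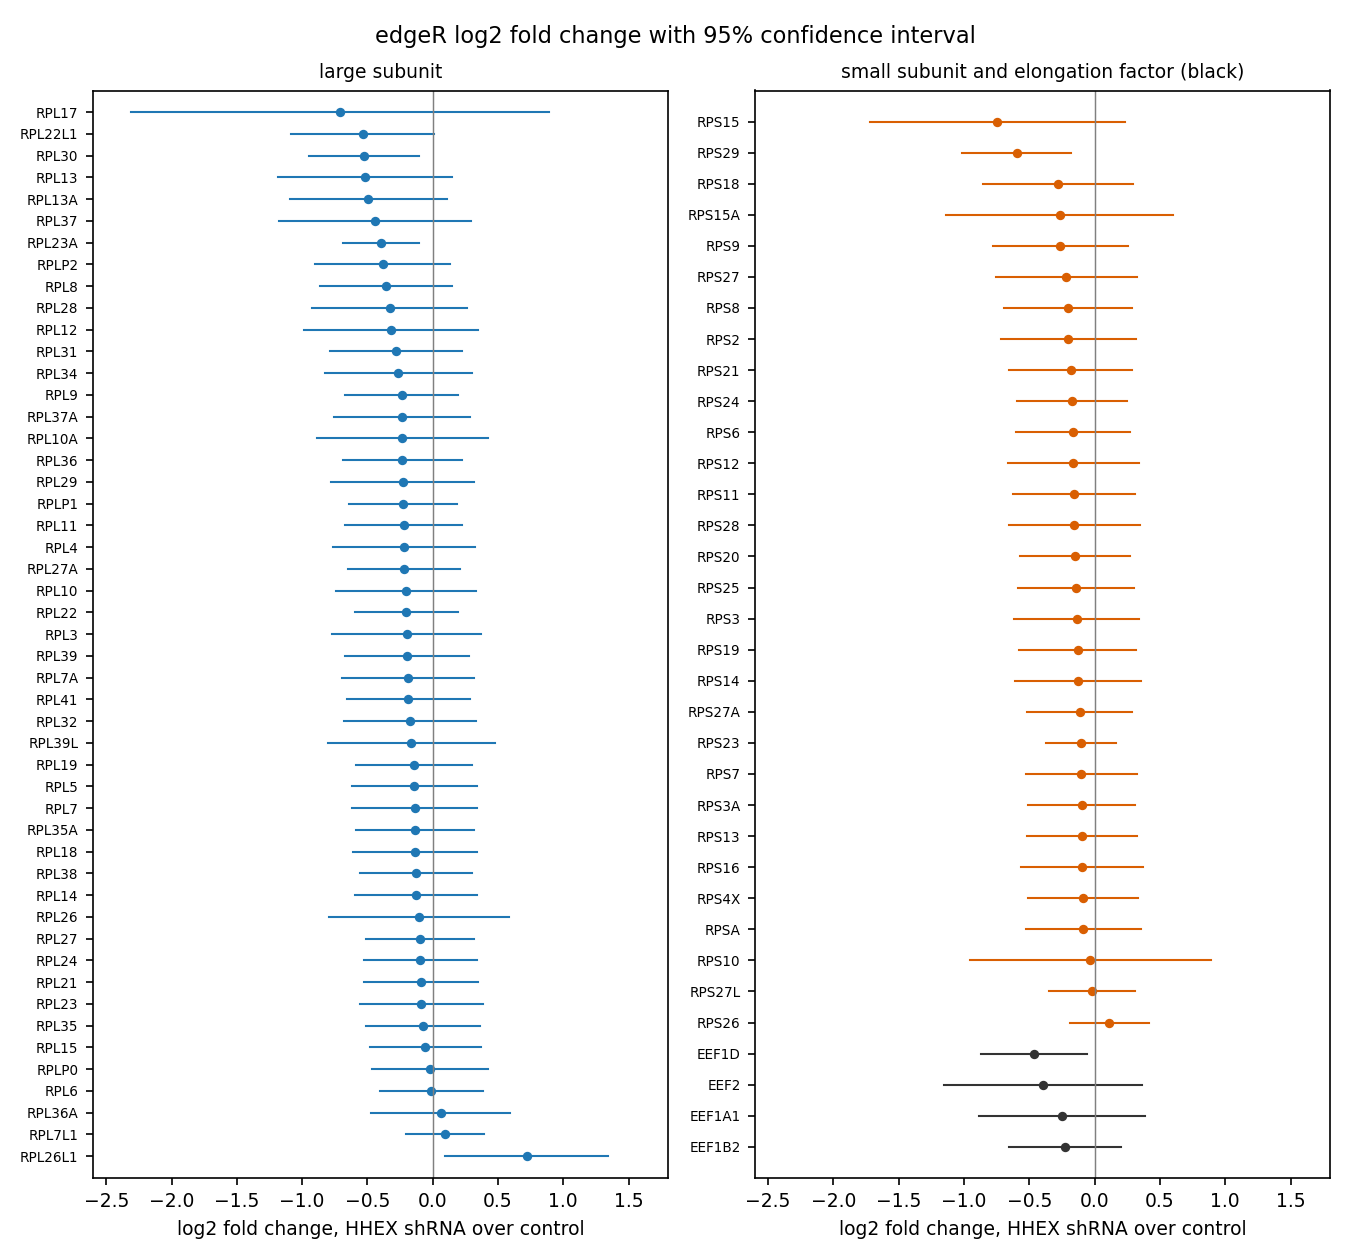
Fitted log2 fold change (x axis, HHEX shRNA over control, n = 3 libraries each) of 83 kept members (y axis), with bars for the 95% confidence interval, for the large subunit on the left and the small subunit and elongation factors on the right. Most points lie left of 0 with intervals that cover it, RPS29, RPL30, RPL23A and EEF1D have intervals below 0, and RPL26L1 has its interval above 0.

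Library by library, KD1 had 63 of 86 members (73.3%) below all 3 controls, where 37.0% of all tested genes were, and 3 members above all 3, where 34.1% were. KD2 had 75 members (87.2%) below all 3 controls, where 37.6% of all genes were, and 2 above, where 34.4% were. KD3 ran the other way, with 8 members (9.30%) below all 3 controls, where 31.6% of all genes were, and 42 (48.8%) above, where 29.9% were. KD2 lay under KD1 for 81 of 86 members, with a median gap of -0.17 beside -0.01 over all tested genes.

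The size of these differences was moderate. Past 1.5-fold from the control mean, KD1 had 10 members lower, where 17.9% of all genes were, and 1 higher, where 12.1% were. The 10 members are 11.6%, a smaller share than that of all genes. KD2 had 24 members (27.9%) lower, where 18.0% of all genes were, and 1 higher, where 12.5% were. KD3 had 1 member lower, where 10.1% of all genes were, and 0 higher, where 6.48% were. The members of KD1 and KD2 were thus displaced mostly to 1 side, with all but 5 to 8 of them below the control mean. Only in KD2 was the share past 1.5-fold lower larger than that of all genes.

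Controls differed from each other too. Against the mean of the other controls, the median member stood at -0.20 in control1, 0.25 in control2 and -0.06 in control3. Of the 86 members, 78 lay below the other controls in control1 and 79 above them in control2. Single controls were thus about as one-sided as KD1 and KD2, where 78 and 81 members lay below the control mean. Control2 thus lay nearly as far above the other controls as KD1 lay below the control mean, while KD2 lay farther. KD3, at 0.19, lay less far above the control mean than control2 above the other controls.

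**Figure D2:**
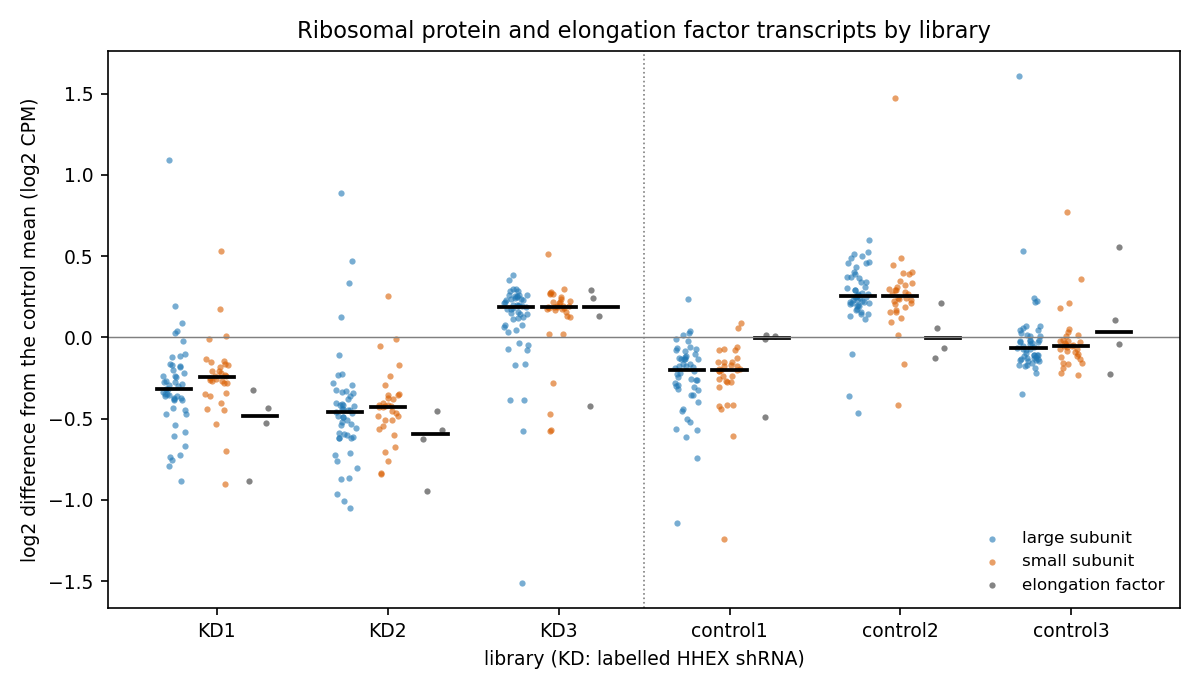
Each point is a kept member, and its height is the log2 CPM difference of a library from the control mean, where a control is set against the mean of the other controls. Black bars are medians of the large subunit (n = 50), small subunit (n = 32) and elongation factors (n = 4), which lie at -0.32, -0.25 and -0.48 in KD1, -0.46, -0.43 and -0.60 in KD2, and 0.19 for each in KD3.

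Leaving KD3 out decided the calls. With KD1 and KD2 against the 3 controls, edgeR called 35 of 86 members (40.7%) lower, where 15.1% of 14791 genes were, and 1 member higher, where 16.5% were. The 35 were 23 of the large subunit, 9 of the small subunit and 3 elongation factors. In that comparison RPL37 fell by 0.93, EEF2 by 0.89, RPL13 by 0.88 and RPS15A by 0.87 on the log2 scale, while RPL26L1 rose by 1.01. Their edgeR adjusted p were 0.000203 for EEF2 and 0.000315 for RPL26L1. KD1, whose HHEX level goes against its label, is 1 of the 2 libraries in it. Whether KD1 and KD2, which correlated at 0.989, are the libraries that share a replicate number cannot be told from the columns, and if they are, these p-values are too small. The median log2 fold change over the 86 members was -0.35 without KD3, -0.04 without KD2, -0.11 without KD1 and -0.06 without control2. Leaving out KD1, KD2, control1, control2 or control3 instead of KD3 gave 0 members called, where 0, 0, 1, 0 and 0 of all genes were called. Without a filter on low counts, RPL13, RPL30 and RPS29 were called lower, where 2.24% of 28322 genes were, and RPL26L1 higher, where 2.56% were.

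As a share of all counts, members took 6.91%, 6.22% and 10.3% in KD1, KD2 and KD3, against 8.61%, 9.89% and 9.27% in the controls. KD1 and KD2 lay below every control and KD3 above every control. Large subunit transcripts took 3.47%, 3.09% and 4.96% in KD1, KD2 and KD3, against 4.13%, 4.95% and 4.46% in the controls. Small subunit transcripts took 1.94%, 1.71% and 2.63%, against 2.16%, 2.63% and 2.39%. The ratio of large to small subunit counts was 1.79, 1.81 and 1.88 in KD1, KD2 and KD3, against 1.91, 1.88 and 1.87 in the controls. The subunit ratio thus varied less than either share, with KD1 and KD2 a little below the controls. Processed copies of ribosomal protein genes are common in the genome, and reads can be split between a gene and its near-identical copies. A name pattern for pseudogenes matched 1148 genes. They took 0.365%, 0.325% and 0.476% of counts in KD1, KD2 and KD3, against 0.405%, 0.481% and 0.438% in the controls. The pattern also matches the stalk genes RPLP0, RPLP1 and RPLP2, which are members with 27155, 11655 and 6377 counts in KD1. These values thus do not give the share of pseudogenes alone, and nothing is drawn from the placing of KD1 and KD2 in them.

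**Figure D3:**
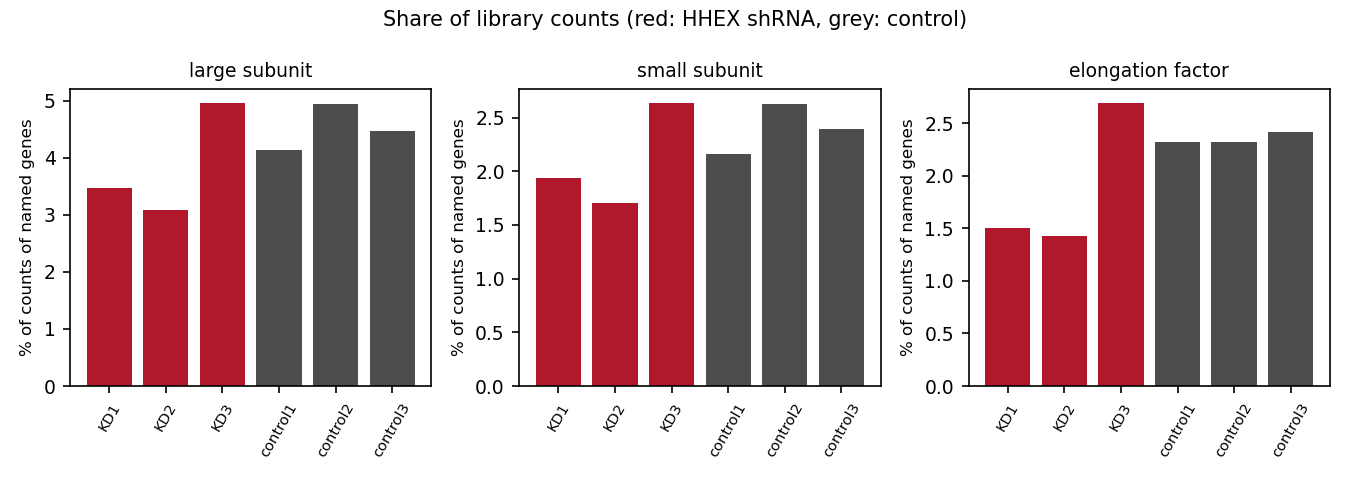
Bars give the percent of a library's counts of named genes taken by each class, with libraries labelled HHEX shRNA in red and controls in grey. KD1 and KD2 are the lowest bars of each panel. KD3 is the highest, at 2.69% for the elongation factors and nearly level with control2 for both subunits.

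Among large subunit proteins, RPL13A, which is also studied for a role outside the ribosome in translational silencing, stood at 1076 CPM in KD1, 928 CPM in KD2 and 1873 CPM in KD3, against 1659, 2002 and 1791 CPM in the controls. KD1 and KD2 lay far below the controls and KD3 within them. Its gene spans chr19:49487554-49492308 and its log2 fold change was -0.49 (SE 0.27, edgeR adjusted p = 0.318). RPL12, a protein at the base of the stalk, had 965, 836 and 1882 CPM in KD1, KD2 and KD3, against 1479, 1672 and 1449 CPM. Here KD3 exceeded every control. RPL37 had 199, 183 and 434 CPM, against 323, 405 and 379.7 CPM, with the same arrangement. RPL13A and RPL37 were picked after their values were seen.

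RPL13 had 337, 270.3 and 586 CPM in KD1, KD2 and KD3, against 455, 704 and 552 CPM in the controls. KD1 and KD2 lay below the lowest control and KD3 among the controls (log2 fold change -0.52, SE 0.29, edgeR adjusted p = 0.336). RPL30 had 47.4, 47.4 and 69.7 CPM, against 72.7, 91.8 and 72.3 CPM, and RPL23A had 38.6, 37.0 and 37.9 CPM, against 47.7, 55.6 and 45.9 CPM. These are the large subunit members whose groups did not overlap. The log2 fold change was -0.53 for RPL30 with an SE of 0.19 (edgeR adjusted p = 0.179) and -0.39 for RPL23A with an SE of 0.13 (edgeR adjusted p = 0.157). For RPL23A, which too was picked after its values were seen, KD3 lay as low as KD1 and KD2.

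RPL5 and RPL11, which bind 5S rRNA and restrain MDM2 when free of the ribosome, were close to the family median. RPL5 averaged 1204 ± 325 CPM in the libraries labelled HHEX shRNA and 1328 ± 121 CPM in the controls (SD, n = 3 each), and RPL11 averaged 888 ± 205 CPM and 1037 ± 109.8 CPM. Neither passed the test, with edgeR adjusted p of 0.727 and 0.537. RPL6 differed least in the large subunit. It had 1413, 1222 and 1641 CPM in KD1, KD2 and KD3, against 1351, 1568 and 1388 CPM in the controls, and its direction turned with scaling (log2 fold change -0.01, and 0.01 with RLE scaling).

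The stalk recruits the elongation factors to the ribosome. RPLP0, its base, had 1830.0, 1620.4 and 2419 CPM in KD1, KD2 and KD3, against 2008, 2124 and 1833 CPM in the controls. KD3 was the highest of the 6 libraries and KD2 the lowest, and the log2 fold change was -0.02 (SE 0.20, edgeR adjusted p = 0.956). RPLP1 averaged 812 ± 143 CPM in the libraries labelled HHEX shRNA and 951 ± 125 CPM in the controls, and RPLP2 averaged 441 ± 83.3 CPM and 575 ± 159 CPM (SD, n = 3 each). The log2 fold changes were -0.23 for RPLP1 and -0.38 for RPLP2, and neither passed the test, with edgeR adjusted p of 0.497 and 0.362.

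Among small subunit proteins, RPS29 had the smallest adjusted p of all members. It had 25.5, 23.3 and 34.2 CPM in KD1, KD2 and KD3, against 38.3, 48.6 and 38.7 CPM in the controls. All 3 libraries labelled HHEX shRNA lay below all controls, with KD3 nearest to them (log2 fold change -0.60, SE 0.18, edgeR adjusted p = 0.147). RPS18, a protein of the small subunit head, had 1160.2, 1052 and 1955 CPM, against 1507, 1923 and 1638 CPM, where the fold change was -0.28 on the log2 scale with an SE of 0.25 (edgeR adjusted p = 0.543). KD3 lay above every control for RPS18. RPS6, the classic substrate of the S6 kinases, averaged 660.1 ± 154 CPM in the libraries labelled HHEX shRNA and 741 ± 71.6 CPM in the controls (SD, n = 3 each), a log2 fold change of -0.17. RPSA, which also serves as a laminin receptor, averaged 2391 ± 467 CPM and 2537 ± 120.3 CPM, a log2 fold change of -0.09.

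RPS15 had the lowest fitted value of the family, -0.74 (SE 0.42, edgeR adjusted p = 0.341), and a control that stood apart. It had 219.7, 176 and 215 CPM in KD1, KD2 and KD3, against 168, 588 and 267 CPM in the controls, so that control2 was far above all others and control1 the lowest. Over the fits that leave out 1 library, its log2 fold change ran from -1.05 to -0.07, the value nearest 0 being that without control2. The annotated start of RPS15, shown above, has no tract, and a link between this and its values was not tested. RPS26, which contacts the mRNA upstream of the start codon, had 235, 207 and 235 CPM in KD1, KD2 and KD3, against 201, 235 and 191 CPM. The groups overlapped and the log2 fold change was 0.11 (SE 0.13, edgeR adjusted p = 0.652).

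Levels of different genes were set side by side as CPM per kilobase of the longest principal transcript in GENCODE 29. EEF1A1, which delivers aminoacyl-tRNA, came first of all members with 3264 ± 1154 in the libraries labelled HHEX shRNA and 3875 ± 90.1 in the controls (SD, n = 3 each). RPS18 followed with 2266 ± 805 and 2756 ± 346, and RPL7A, a protein near the peptide exit tunnel, with 2132 ± 579.8 and 2433 ± 262. RPL12, RPL7 and RPSA came next in the controls, each within 1 SD of its neighbour. EEF2 was 13th with 1346 ± 707 and 1770.4 ± 96.0. Over the joint exon length of all transcripts of a gene, a scale added after the data were seen and a median of 2.61 times as long, EEF1A1 stayed first but EEF2 came second, so the place of EEF2 depends on the length used.

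EEF1A1, at chr6:73515750-73523797, had 11923, 11164 and 20395 CPM in KD1, KD2 and KD3, against 17113, 17649 and 16867 CPM in the controls. The controls lay within a narrow band, with KD1 and KD2 well under it and KD3 over it (log2 fold change -0.25, SE 0.28, edgeR adjusted p = 0.634). EEF2, at chr19:3976056-3985469, had 3028, 2908 and 6839 CPM, against 5636, 5282 and 5887 CPM, again with KD1 and KD2 below and KD3 above all controls (log2 fold change -0.40, SE 0.33, edgeR adjusted p = 0.517). EEF1B2, an exchange factor for EEF1A1, followed the same order with 215, 182 and 296 CPM in KD1, KD2 and KD3, against 271, 298 and 243 CPM, although KD3 there stayed under the highest control. EEF1D, another exchange factor, had 49.0, 48.5 and 49.5 CPM, against 52.8, 64.3 and 85.8 CPM. Its libraries labelled HHEX shRNA hardly differed among themselves and lay below all controls, of which control3 was high (log2 fold change -0.47, SE 0.18, edgeR adjusted p = 0.199).

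Elongation factor counts per ribosomal protein count were 0.277, 0.297 and 0.354 in KD1, KD2 and KD3, against 0.368, 0.306 and 0.353 in the controls. KD1 and KD2 had the lowest ratios, but control2 was close to KD2. EEF2 counts per EEF1A1 count were 0.254, 0.260 and 0.335, against 0.329, 0.299 and 0.349. EEF2 was thus lower relative to EEF1A1 in KD1 and KD2 than in any other library.

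**Figure D4:**
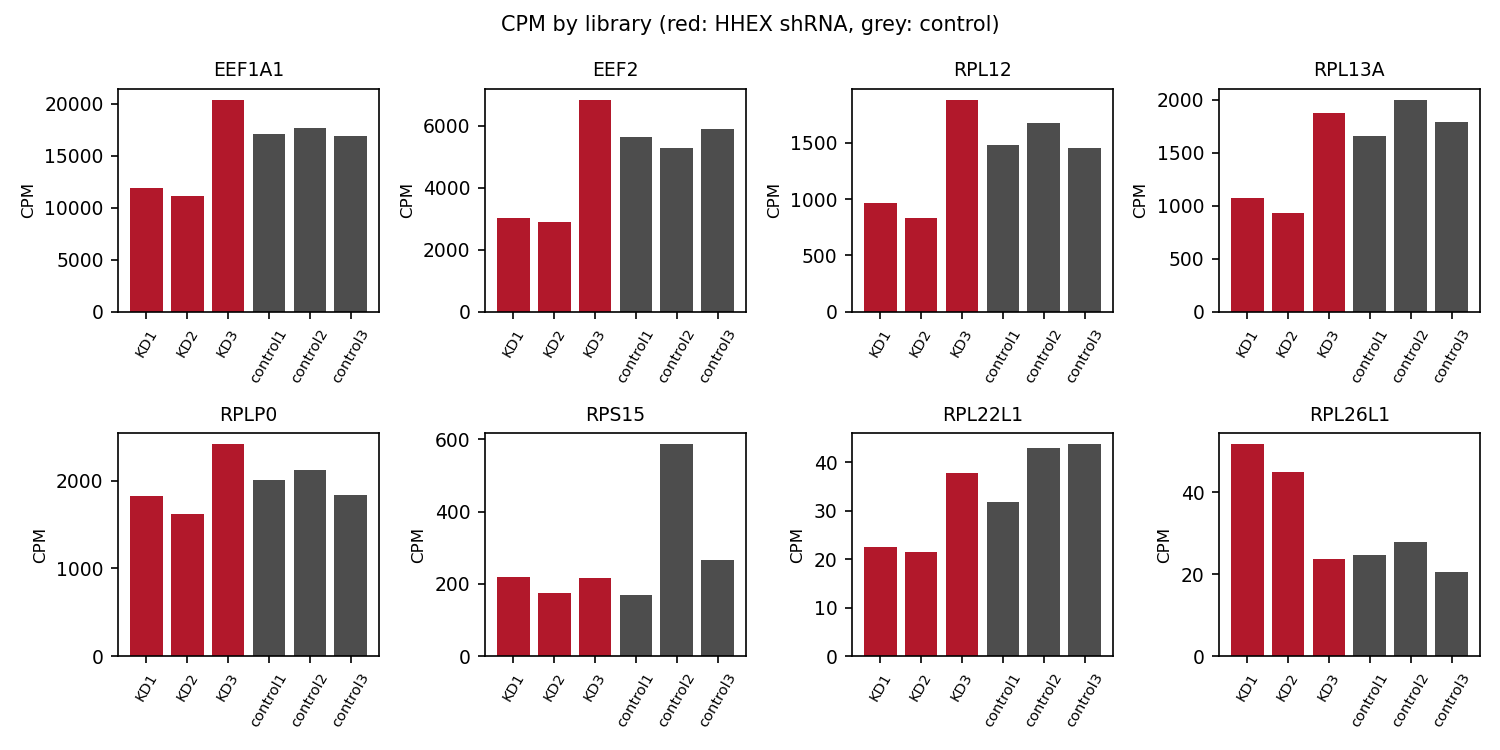
CPM of 8 members in each library, with libraries labelled HHEX shRNA in red and controls in grey, each panel starting at 0. EEF1A1, EEF2, RPL12 and RPL13A are low in KD1 and KD2, RPS15 is high in control2 at 588 CPM, and RPL26L1 is high in KD1 and KD2 at 51.8 and 44.8 CPM.

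Paralog forms did not follow the family in 1 direction. RPL26L1, at chr5:172958729-172969771, had 51.8, 44.8 and 23.6 CPM in KD1, KD2 and KD3, against 24.6, 27.9 and 20.6 CPM in the controls. KD1 and KD2 lay above all controls and KD3 among them (log2 fold change 0.72, SE 0.27, edgeR adjusted p = 0.199). Its parent RPL26 had 9.16, 16.3 and 7.82 CPM, against 8.97, 13.7 and 13.0 CPM, a low level that may not stand for the gene, since AC135178.2 covers 98.9% of its span on the same strand. RPL22L1, a paralog that can replace RPL22 in the ribosome, had 22.6, 21.4 and 37.8 CPM in KD1, KD2 and KD3, against 31.8, 42.9 and 43.7 CPM, where the fold change was -0.54 on the log2 scale with an SE of 0.24 (edgeR adjusted p = 0.249). RPL22L1 counts per RPL22 count were 0.191, 0.191 and 0.221, against 0.220, 0.260 and 0.288, with KD3 and control1 nearly equal.

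RPL7L1, a nucleolar relative of RPL7 with a part in ribosome assembly, differed little between libraries. It had 399, 410.0 and 396 CPM in KD1, KD2 and KD3, against 419, 358 and 354 CPM, where the fold change was 0.09 on the log2 scale with an SE of 0.13 (edgeR adjusted p = 0.715). RPL7 averaged 2170.1 ± 493 CPM in the libraries labelled HHEX shRNA and 2388 ± 288 CPM in the controls (SD, n = 3 each). The ratio of RPL7L1 to RPL7 counts was 0.199, 0.230 and 0.145 in KD1, KD2 and KD3, against 0.188, 0.132 and 0.160. RPS27L, a target of p53, had 29.8, 28.9 and 30.4 CPM, against 26.0, 31.3 and 33.1 CPM, and its direction turned with scaling. Its parent RPS27 averaged 242 ± 80.0 CPM and 281 ± 52.1 CPM. RPL39L, known from testis, averaged 6.64 ± 1.46 CPM in the libraries labelled HHEX shRNA and 7.44 ± 2.13 CPM in the controls, and RPL39 averaged 299 ± 59.8 CPM and 344 ± 81.0 CPM.

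**Figure D5:**
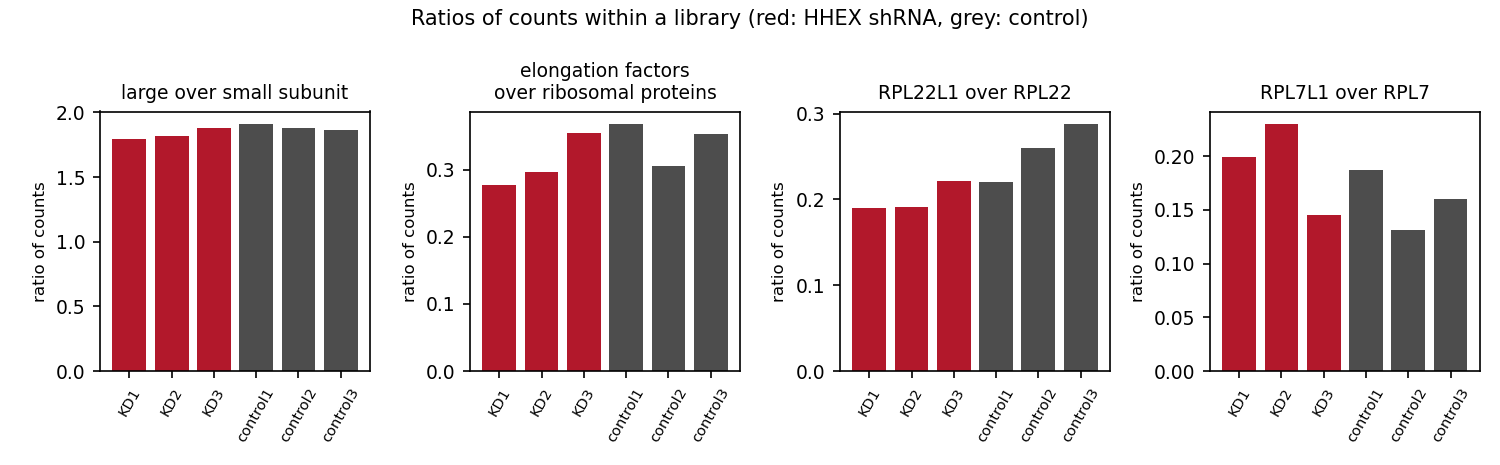
Ratios of counts within a library, for large over small subunit, elongation factors over ribosomal proteins, RPL22L1 over RPL22 and RPL7L1 over RPL7, with libraries labelled HHEX shRNA in red and controls in grey. The subunit ratio stays between 1.79 and 1.91, while the RPL22L1 ratio is 0.191 in KD1 and KD2 and 0.220 to 0.288 in the controls.

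A few members had counts that may not stand for the gene. EEF1G, a factor every cell uses, was listed at 0 in all 6 libraries, and its span is covered to 99.99% on the same strand by AP002990.1, which had 13 to 67 counts. Another 6 kept members, among them RPL17, RPL22, RPL26, RPL36A and RPS10, had at least 50% of their span covered by a gene on the same strand, and each such partner was listed at 0. Their median control level was 8.59 CPM, beside 736 CPM for the 80 kept members without such a partner. RPL17 had the widest spread among controls, with 13, 11 and 3 counts in KD1, KD2 and KD3, against 6, 10 and 30 counts in the controls. Over the 80 members without a partner the median log2 fold change was -0.17, the same as over all 86. RPL3L, RPL10L, RPS4Y1 and RPS4Y2 did not reach the count rule.

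Members with and without a tract at the annotated start had similar medians. The 50 members with a tract at the start had a median log2 fold change of -0.18, and 49 were negative. The 19 without it had a median of -0.14, and 16 were negative, with a range of -0.74 for RPS15 to 0.72 for RPL26L1. In KD1 the medians were -0.29 with the tract and -0.23 without, in KD2 -0.47 and -0.37, and in KD3 0.19 and 0.18. Both sets thus had the same order of libraries. Of the 69 members, 57 had a tract when it could begin within 5 bases of the start. The set without it thus holds some members with a tract close by, such as RPL3 and RPL4. The split therefore cannot tell how members that lack a tract behave.

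Other parts of the translation apparatus were described by lists, of which 0 members were called in either direction by edgeR in all 6 libraries. Other transcripts known for a tract, 7 in all, had a median log2 fold change of -0.24, with 5 negative and 2 positive. Among them GAS5, a host of small nucleolar RNAs, had 142, 119.6 and 556 CPM in KD1, KD2 and KD3, against 354, 470.3 and 553 CPM in the controls, where the fold change was -0.75 on the log2 scale with an SE of 0.57 (edgeR adjusted p = 0.475). PABPC1, the poly(A)-binding protein, had 2339, 2292 and 3749 CPM, against 3284, 3484 and 3114 CPM. RACK1, a small subunit protein with another naming, had 1731, 1539.9 and 2905 CPM, against 2492, 2656 and 2521 CPM, where the fold change was -0.31 on the log2 scale with an SE of 0.25 (edgeR adjusted p = 0.494). GAS5, PABPC1 and RACK1 had KD1 and KD2 below and KD3 above every control. NAP1L1, a histone chaperone, had 632, 586 and 923 CPM, against 881, 1006 and 857 CPM, and TPT1 had 309, 289 and 503 CPM, against 402, 603 and 456 CPM, both with KD3 within the controls. Of the 7 tract-bearing transcripts, 5 lay below every control in KD1, where 37.0% of all tested genes did, and 4 in KD2, where 37.6% did. Above every control in KD3 lay 3, where 29.9% of all tested genes did.

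The 36 initiation factors had a median log2 fold change of -0.04, with 19 negative and 17 positive. At an unadjusted p under 0.05 there were 4 (11.1%), below the 20.6% of all tested genes. EIF4E, the cap-binding protein, had 141, 135 and 94.2 CPM in KD1, KD2 and KD3, against 80.2, 80.7 and 70.6 CPM in the controls. All 3 libraries labelled HHEX shRNA lay above all controls, without passing the test (log2 fold change 0.68, SE 0.17, edgeR adjusted p = 0.110). That was so for 8 of the 36 initiation factors, where 11.6% of all genes did so. For 0 of the 36 they lay below all controls, where 13.3% of all genes did so. The 12 TOR pathway genes, which again include EIF4E, had a median of 0.11. At an unadjusted p under 0.05 there were 3 (25%), EIF4E included, near the 20.6% of all tested genes. Among them EIF4EBP2, a repressor of EIF4E, had 118, 130.2 and 49.0 CPM, against 63.9, 50.5 and 57.6 CPM. EIF4EBP1, its relative, had 51.8, 47.3 and 92.7 CPM, against 79.6, 132 and 91.3 CPM, so that the pair stood on opposite sides in KD1 and KD2.

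The 8 other elongation and termination factors had a median of 0.22, with 2 (25%) at an unadjusted p under 0.05, again near the 20.6% of all tested genes. GSPT1, a release factor, had 269, 272 and 222 CPM in KD1, KD2 and KD3, against 186, 196 and 184 CPM, where the fold change was 0.43 on the log2 scale with an SE of 0.13 (edgeR adjusted p = 0.143). ABCE1, which splits ribosomes after termination, had 202, 224 and 187 CPM, against 147, 162 and 155 CPM, where the fold change was 0.40 on the log2 scale with an SE of 0.12 (edgeR adjusted p = 0.145). Both were above all controls in all 3 libraries. The groups did not overlap, with the HHEX shRNA side higher, for 3 of the 8, where 11.6% of all genes did so. With that side lower there were 0, where 13.3% of all genes did so. The 75 tested mitochondrial ribosomal proteins, whose genes are nuclear, had a median of 0.03, with 6 (8%) at an unadjusted p under 0.05, below the 20.6% of all tested genes. Nuclear-retained transcripts, given as a sign of RNA quality, summed to 747 to 869 CPM in the libraries labelled HHEX shRNA and 808 to 1534 CPM in the controls, and their part in these results was not tested.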

How the data were processed

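The authors deposited raw counts per gene for 6 libraries, in whole numbers whose totals differ by library. A further 6 columns of values per sample were not used. RNA was Trizol-isolated and made into libraries with TIANSeq mRNA capture and library kits, per the labels' protocols. The sources used here give no aligner, counter, strand setting or build. Start and end of 58672 of 58735 named genes, and of all 91 members, equal GENCODE 29 of GRCh38, so coordinates are on that build. A further 998 rows without a gene name, 0.239% to 0.298% of counts, were left out. Reads carry no molecular identifiers.

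Counts were tested with edgeR 4.0.16 in R 4.3.3 (filterByExpr, TMM scaling, robust quasi-likelihood test, threshold 0.05 after Benjamini-Hochberg adjustment over 14280 genes). DESeq2 1.42.0 served as an alternative. The edgeR fit was also run on counts simulated with means and dispersions taken from these data. Differences by library are log2 CPM with a prior count of 2. Members and lists were chosen with earlier results of these data known. Named members were the 4 highest and 4 lowest fold changes and 4 most abundant per kilobase of each subunit, the stalk, the elongation factors, kept paralogs with parents, the widest control spread, RPL5, RPL11, RPS6 and RACK1. From each other list up to 4 genes with the smallest p were eligible. Others are said to be picked later. Values of some single genes are not reported here. RefSeq windows of GRCh38.p14 span 250 bases before to 50 after a start. Alternatives covered scaling, filters, dispersion, fold and prior count, and leaving out each library.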

Additional observations from a re-analysis of the deposited data

How the results depend on the processing

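No paired analysis was possible because the count columns carry no replicate number, so the planned fit with the number as a block was not run. The count of members called lower was 0 under RLE, upper-quartile and total-count scaling, the other filter, non-robust dispersion and DESeq2, 3 without a count filter, and 0 to 35 over the fits that leave out 1 library. That of members called higher was 1 without a count filter and 0 to 1 leaving out 1 library. For the other lists, leaving out 1 library gave 0 to 1 other ribosomal proteins, 0 to 10 initiation factors, 0 to 1 other elongation and termination factors, 0 to 4 other tract-bearing transcripts, 0 to 1 TOR pathway genes and 0 to 2 mitochondrial ribosomal proteins called lower. Called higher were 0 to 6 initiation factors, 0 to 3 other elongation and termination factors, 0 to 4 TOR pathway genes and 0 to 8 mitochondrial ribosomal proteins. The upper end came without KD3 in each case. In that fit 15.1% of 14791 genes were called lower and 16.5% higher. The lists held 4, 36, 8, 7, 12 and 75 tested genes, in the order first named. EIF4E was in both the initiation factor and the TOR pathway list, so a call of it counts in both. Without a count filter 1 initiation factor, 1 other elongation factor, 2 TOR genes and 1 mitochondrial ribosomal protein were called higher and 1 TOR gene lower. Of all genes in that fit, 2.56% were called higher and 2.24% lower. DESeq2 called 1 initiation factor, 1 TOR gene and 1 mitochondrial ribosomal protein higher, where it called 3.18% of all genes higher. The elongation factor median in KD1 was -0.46 with RLE, -0.55 with upper-quartile and -0.53 with total-count scaling, in KD2 -0.57, -0.67 and -0.62, and in KD3 0.14 with upper-quartile and 0.13 with total-count scaling. Past a log2 difference of 0.32, 37 members were lower and 2 higher in KD1 (29.3% and 24.2% of all genes), 71 and 3 in KD2 (30.1% and 24.97%), and 8 and 3 in KD3 (21.6% and 16.7%). Past 2-fold, 0 were lower in KD1 (8.50% of all genes), and 2 were lower and 0 higher in KD2 (8.46% and 4.27%). In KD3, 4 members were past 1.5-fold lower with upper-quartile and with total-count scaling and 2 with a prior count of 0.5. The elongation factor share differed by -0.54 percentage points without the 10 most abundant other genes. Directions turned for RPL6 (0.0085 with RLE and 0.0084 with DESeq2), RPL36A (-0.0036 with upper-quartile scaling) and RPS27L (0.00033 with RLE). Over fits leaving out 1 library, log2 fold changes that changed sign ran from -1.03 to 0.16 for RPL17, -0.10 to 0.094 for RPL6, -0.080 to 0.26 for RPL36A, -0.44 to 0.22 for RPS10, -0.088 to 0.053 for RPS27L, -0.22 to 0.036 for RPSA, -0.18 to 0.10 for RPLP0, -0.48 to 0.12 for RPL26, -0.35 to 0.0078 for RPL39, -0.21 to 0.033 for RPS4X, -0.36 to 0.00018 for RPL5, -0.30 to 0.045 for RPS16 and -0.35 to 0.042 for RPL39L. The cause was not tested. Depth limits members with few counts, such as RPL17 with 3 to 30 counts a library.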
